A study of Mus musculus with 8 samples.

Results

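*Sfmbt2* (gene ID 353282) spans 225 kb of mouse chromosome 2, between 10370440 and 10595253 in GRCm38, on the plus strand. It is 1 of 21887 protein-coding genes placed on the chromosomes. The gene was chosen by measured values of these libraries, namely the presence of listed peaks in it and the cells that hold them, so its peaks are described here without a test. All peaks in the gene or within 50 kb of either end were taken. Cut & Tag, in which an antibody directs a transposase to cut and tag the DNA next to its target, was run on differentiated brown adipocytes (BAC) with an antibody against the transcription factor EBF2 or against H3K27ac, an acetylated histone mark of active promoters and enhancers. All cells were taken from newborn *Cars2* flox/flox mice, as preadipocytes of interscapular brown fat, and immortalized with the SV40 large T antigen. They had been infected as preadipocytes with an empty retroviral vector (Vec, labelled BAC-V and WT) or with one carrying Cre recombinase (Cre, labelled BAC-Cre and CarS2-KO), selected with hygromycin and differentiated with IBMX, indomethacin, dexamethasone, insulin and T3. There were 2 libraries of 50000 cells each per antibody and cell type, which makes 8. The labels do not say that the 2 are from separate cultures, and what is said of cultures in the methods is not tied to these libraries, so their spread may be technical, and all rest on cells of 1 immortalized kind.

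SFMBT2 is a Polycomb group protein with MBT domains, which bind methylated histone lysines. It works with YY1 in repressing genes. In the mouse the gene is imprinted, is expressed from the paternal allele in extraembryonic tissue, and is needed for the placenta. One of its introns is known to hold a rodent-specific cluster of microRNA genes of the miR-297, miR-466, miR-467 and miR-669 families, which arose by tandem duplication. A microRNA is a short RNA that pairs with messenger RNAs, mainly through its seed (bases 2 to 8), and lowers their translation or stability. EBF2 is a factor of brown adipocyte identity, and *Cars2* encodes the mitochondrial cysteinyl-tRNA synthetase, an enzyme that also makes cysteine persulfide.

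In all 4 H3K27ac lists and in both EBF2 lists of Cre cells, 1 peak lay in *Sfmbt2*. In the EBF2 lists of Vec cells there was none. All 6 peaks fell on the same stretch of the microRNA cluster, deep inside the gene, and none reached a transcription start site. Together they spanned 10.8 kb (10484044 to 10494867), which is 4.81% of the gene. Neither flank of 50 kb held a peak in any of the 8 lists. The reference table gives the bounds of genes and not their exons, so the position of the peaks relative to exons was not analysed here.

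**Figure D1:**
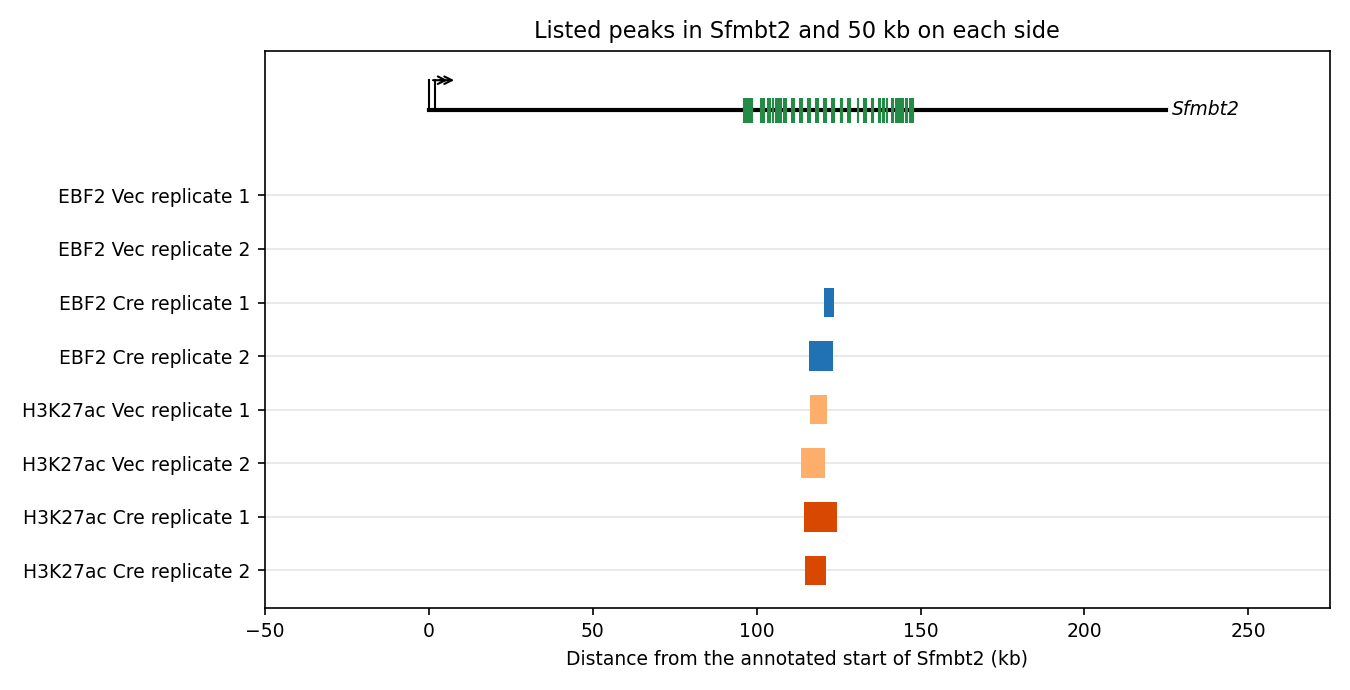
Listed peaks in Sfmbt2 and in 50 kb on each side, by library (rows), against the distance from the annotated start of the gene in kb. Bars are peaks to scale, the black line is the gene, arrows are its RefSeq start sites and green ticks are the 72 annotated microRNA genes. The 6 peaks stack at 114 to 124 kb, and the rows of EBF2 Vec are empty.

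The microRNA cluster takes up 51.6 kb of the gene (10466663 to 10518279), from 96.2 kb after its start to 77 kb before its end. It holds 72 annotated microRNA genes, 5.86% of the 1228 of the mouse reference. By name, 29 of them are Mir669 genes, 23 are Mir466, 14 are Mir467 and 5 are Mir297. The remaining 1, *Gm25285*, is annotated as a microRNA gene without a Mir name. Many are copies under 1 name: 12 genes are called *Mir669a*, 10 *Mir467a* and 8 *Mir466b*, and each carries its own copy number. In the middle of the cluster the genes come in triplets of 600 to 611 bp, in which a Mir467 gene is followed by a Mir466 gene (*Gm25285* in 1 triplet) and a Mir669 gene. There are 12 such triplets. The first 11, from *Mir467c* to *Mir467a-9*, are spaced 2413 to 2470 bp apart (median 2451 bp) over 25.1 kb. All 6 peaks lay inside this regular part and touched 5 of its triplets, the fifth to the ninth.

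Mature sequences of relatives outside *Sfmbt2* are shown as examples of these family names. Elsewhere in the genome lie 10 genes named Mir297, Mir466, Mir467 or Mir669, and RefSeq (GRCm38.p6) gives mature sequences for 8 of them. The set was chosen by name after the peaks were seen. Capitals mark the seed.
mmu-miR-466k (chromosome 3, 85467396 to 85467418, plus strand): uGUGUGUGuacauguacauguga
mmu-miR-466j (chromosome 10, 60960802 to 60960824, plus strand): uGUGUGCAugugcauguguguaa
mmu-miR-466q (chromosome 3, 28419988 to 28420007, plus strand): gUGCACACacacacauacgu
mmu-miR-466i-3p (chromosome 13, 17747552 to 17747573, plus strand): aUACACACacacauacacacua
mmu-miR-467f (chromosome 11, 69635419 to 69635439, minus strand): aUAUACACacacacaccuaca
mmu-miR-467g (chromosome 5, 34732872 to 34732892, minus strand): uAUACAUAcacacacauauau
mmu-miR-467h (chromosome 9, 115381898 to 115381919, plus strand): aUAAGUGUgugcauguauaugu
mmu-miR-669n (chromosome 3, 115979905 to 115979924, plus strand): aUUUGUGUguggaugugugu

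No seed is shared among these 8. In 7 of them, all of the Mir466 and Mir467 families, purines and pyrimidines alternate over 16 to 22 bases without a break. In mmu-miR-669n, the only Mir669 sequence here, the longest such stretch was 8 bases, and no Mir297 sequence is among them. The median over the 8 was 20 bases, against a median of 4 bases over the 1738 mature sequences of the table, of which 0.345% reached 20. The 1738 include these 8, which were chosen by family name, so nothing is read from the contrast. Of the 10 relatives, 9 lay under no peak in any list. *Mir297-1* on chromosome 7 (10958437 to 10958512) lay under a peak in all 8 lists. Of all 1228 microRNA genes, 0.326% to 1.79% lay under a peak in a given list. The share under a peak in all 8 is not given here, so nothing is read from this 1 gene. For the peaks in *Sfmbt2*, reads may match more than 1 of the copies that share a name, and the sequence of the cluster was not analysed here. How reads with several matching positions were treated is not given in the sources used here, and its part in the result was not tested.

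The EBF2 libraries of Vec and Cre cells address whether loss of *Cars2* goes with other binding of EBF2. In the 2 Vec libraries the window was empty, with 0 peaks in each. In Cre replicate 1 the peak ran from 10490832 to 10494045, a width of 3214 bp and 1.43% of the gene. In Cre replicate 2 it ran from 10486344 to 10493776, a width of 7433 bp and 3.31% of the gene. The length covered was therefore 0 kb in both Vec libraries and 5.32 ± 2.98 kb (SD, n = 2) in Cre, and the groups did not overlap. By the same window, EBF2 peaks were listed at 6.75% and 5.09% of all protein-coding genes in Vec replicates 1 and 2, and at 6.58% and 6.31% in Cre replicates 1 and 2. An EBF2 peak in both Cre lists and in neither Vec list was found at 0.142% of the genes. This is the pattern for which *Sfmbt2* was chosen, so the share is given for scale and nothing is read from it.

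The EBF2 peaks in Cre were of middling strength for their lists. The fold over the background of the caller was 2.48 in Cre replicate 1, where 45.9% of the peaks had a higher fold, and 3.14 in Cre replicate 2, where 32.8% did. The −log10 q-value was 3.29 and 7.79. Coverage, solved from the fold with the p-value, came to 22 over a background of 8.26 in Cre replicate 1 and 35 over 10.4 in Cre replicate 2. The summit of the peak was at 10491257 in Cre replicate 1, 79 bp from *Gm25285*, and at 10489304 in Cre replicate 2, 102 bp from *Mir669p-1*. The summits were 1953 bp apart and belonged to different units of the repeat. The Cre replicate 1 peak shared 2945 bp with that of replicate 2, 91.6% of the former and 39.6% of the latter.

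Whether the Vec libraries could have listed such a peak differed between them. The typical background coverage was 7.38 in Vec replicate 1, 8.26 and 8.76 in the Cre libraries and 1.39 in Vec replicate 2. At the background of Vec replicate 1, a coverage of 16, a fold of 2.03, reaches the weakest p-value in that list, and 55.2% of its peaks had a fold of at most 2.48. A fold as in either Cre peak would thus be within the range that this list holds. At the background of Vec replicate 2, a fold of 2.48 gives a −log10 p-value of 2.46, under the weakest listed value of 2.86, and 2 of its 533 peaks had a fold that low. A fold of 3.14 gives 3.61 there and is within its range. At that typical background a fold as in Cre replicate 1 would thus fall short of the list of Vec replicate 2, while the background at *Sfmbt2* itself in that library is unknown. Coverage under the threshold of the caller is not seen in any list, so the empty Vec rows are no measure of zero binding. The nearest listed EBF2 peak to the gene in Vec cells was 11.4 Mb away in replicate 1 (22003187 to 22004490) and 44.2 Mb away in replicate 2.

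**Figure D2:**
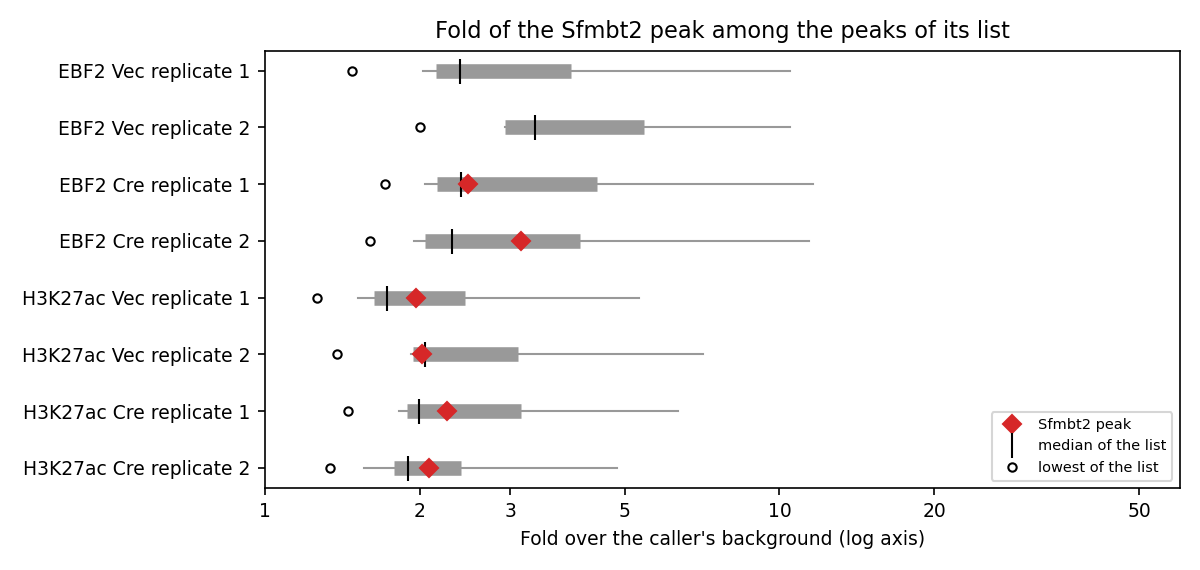
Fold over the caller's background (log axis) of the peaks of each library (rows). Thin lines run from the 10th to the 90th percentile, thick lines from the 25th to the 75th, vertical ticks are medians, circles the lowest listed fold and red diamonds the Sfmbt2 peak. The diamonds lie between 1.97 and 3.14, and the lowest fold of the EBF2 Vec lists is 1.48 (replicate 1) and 2 (replicate 2).

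Peaks of the library labelled EBF2 Cre replicate 1 are named with Cars2AKO, while its sample labels give BAC-Cre. In the study Cars2AKO is the name of an adiponectin-Cre mouse. The labels were followed. Without this library the EBF2 peak of *Sfmbt2* rests on Cre replicate 2, where it covered 7.43 kb, and still has no Vec counterpart. Without Cre replicate 2 it rests on the 3.21 kb of replicate 1.

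H3K27ac was listed over the same stretch in Vec and in Cre cells. In Vec replicate 1 the peak ran from 10486664 to 10491881, a width of 5218 bp. In Vec replicate 2 it ran from 10484044 to 10491318, a width of 7275 bp. In Cre replicate 1 it ran from 10484839 to 10494867, a width of 10029 bp, the widest of the 6. In Cre replicate 2 it ran from 10485050 to 10491547, a width of 6498 bp, which lies between the Vec values. The covered length was 6.25 ± 1.45 kb in Vec and 8.26 ± 2.5 kb in Cre (SD, n = 2 each), so the groups overlapped and the difference was within their spread. By the same window, H3K27ac peaks were listed at 9.47% and 7.39% of all protein-coding genes in Vec replicates 1 and 2, and at 7.67% and 10.2% in Cre replicates 1 and 2. At 6.53% of the genes they were in all 4 lists.

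The H3K27ac peaks had folds of 1.97 and 2.02 in Vec and 2.26 and 2.08 in Cre, against list medians of 1.73, 2.05, 1.99 and 1.9. A higher fold was found for 35.5% and 53.1% of the peaks in Vec replicates 1 and 2, and for 37.1% and 34% in Cre replicates 1 and 2, so these peaks too were middling for their lists. The −log10 q-value was 3.2 in Vec replicate 1 and 2.78 in Cre replicate 1. It was 1.72 in Vec replicate 2 and 2.04 in Cre replicate 2, whose scores of 17 and 20 were under the median of 27 over the H3K27ac lists. With peaks under that median left out, neither Vec nor Cre holds the region in both libraries, and the number of regions held by both cell types goes from 1 to 0. A peak had a higher score than the *Sfmbt2* peak in 46.5% to 62.1% of cases across the 4 lists. The values of a broad peak are means over its length, so these folds are not comparable with those of the EBF2 summits. The 4 peaks shared 4655 bp, from 10486664 to 10491318, with *Mir467a-5*, *Mir466b-5*, *Mir669p-1* and *Mir467a-6* wholly inside.

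The 6 peaks of both antibodies had 487 bp in common, from 10490832 to 10491318. In this stretch 1 microRNA gene lay whole, *Mir467a-6* (10491048 to 10491130), and it was the only 1 of the 72 under a peak in 6 lists. The 5 genes under a peak in 5 lists were *Mir669a-7*, *Mir467a-5*, *Mir466b-5*, *Mir669p-1* and *Gm25285*. Away from this centre the number of lists dropped on both sides: *Mir466b-4* and *Mir669a-8* were covered in 4 lists, *Mir467a-4* and *Mir467a-7* in 3, *Mir466b-6* and *Mir669a-9* in 2, and *Mir466c-2* and *Mir669a-6* in 1. The other 58 microRNA genes of the cluster, all 5 Mir297 genes among them, lay under no peak. In units of the median triplet spacing the peaks were 1.31 to 4.09 units wide. The starts of the peaks differed by up to 6788 bp and the ends by up to 3549 bp, so the edges within the repeat are not fixed to better than these distances. The EBF2 peak of Cre replicate 2 contained the whole H3K27ac peak of Vec replicate 1, and both EBF2 peaks lay inside the H3K27ac peak of Cre replicate 1.

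**Figure D3:**
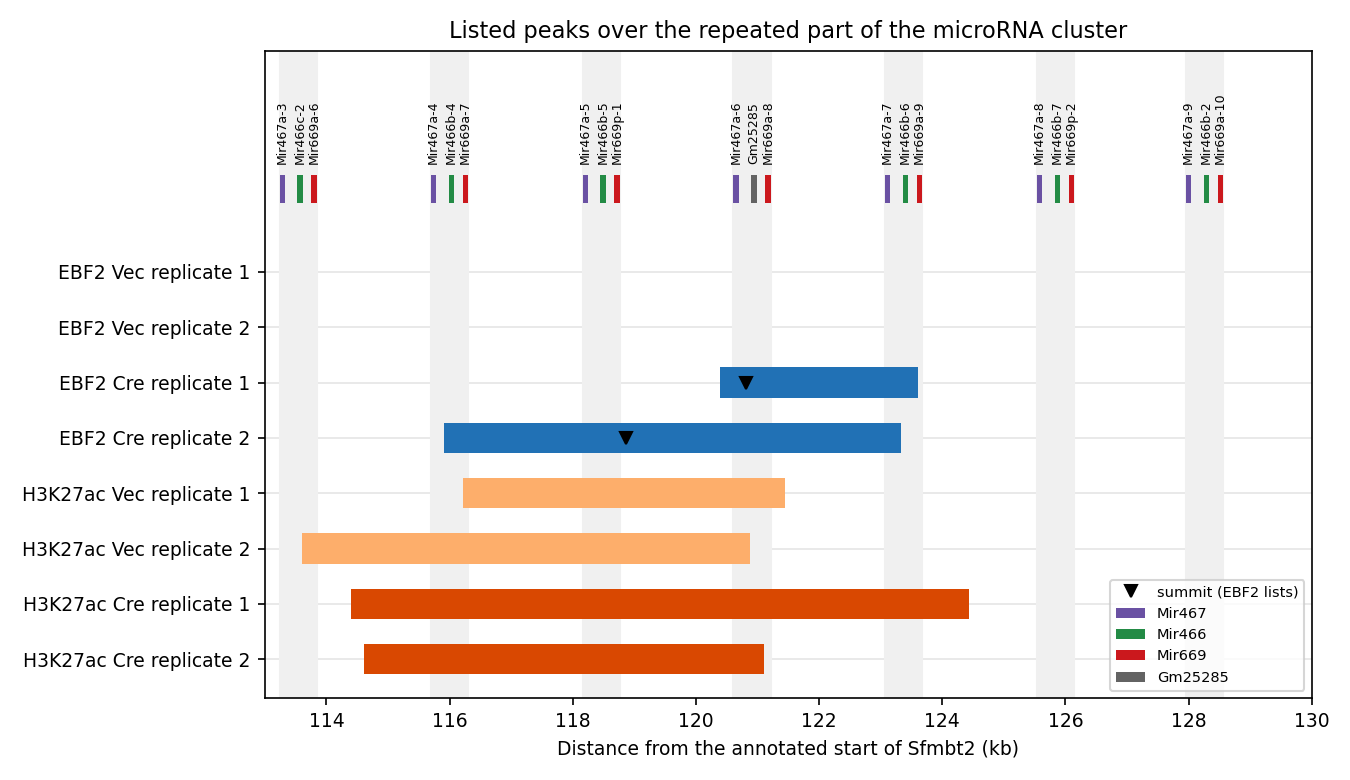
Listed peaks over the repeated part of the microRNA cluster, by library (rows), against the distance from the annotated start of Sfmbt2 in kb. Coloured boxes at the top are microRNA genes by family, grey bands are triplets and black triangles are EBF2 summits. The 6 peaks overlap at Mir467a-6, and no peak reaches the triplet of Mir467a-8.

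Counted by microRNA genes, the lists differed as follows. EBF2 peaks overlapped 0 of the 72 genes in both Vec libraries, 6 in Cre replicate 1 and 9 in Cre replicate 2. In both Cre libraries the same 4 were covered, *Mir467a-6*, *Gm25285*, *Mir669a-8* and *Mir467a-7*. H3K27ac peaks overlapped 7 and 9 in Vec and 12 and 8 in Cre. Both Vec libraries covered 5 of them and both Cre libraries 8. By family, every list with a peak covered Mir466, Mir467 and Mir669 genes together, as the triplets lie side by side.

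Of the 1228 microRNA genes of the genome, 0.407% lay under an EBF2 peak in Vec replicate 1, 0.326% in Vec replicate 2, 0.814% in Cre replicate 1 and 1.06% in Cre replicate 2. Outside *Sfmbt2*, the numbers were 5 and 4 in Vec and 4 and 4 in Cre. The split follows from how *Sfmbt2* was chosen, so nothing is read from it. In the H3K27ac lists 1.71% and 1.55% lay under a peak in Vec and 1.79% and 1.55% in Cre, with 14 and 10 genes outside *Sfmbt2* in Vec and 10 and 11 in Cre. The microRNA genes of a cluster lie under the same peak, so they are not separate observations.

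**Figure D4:**
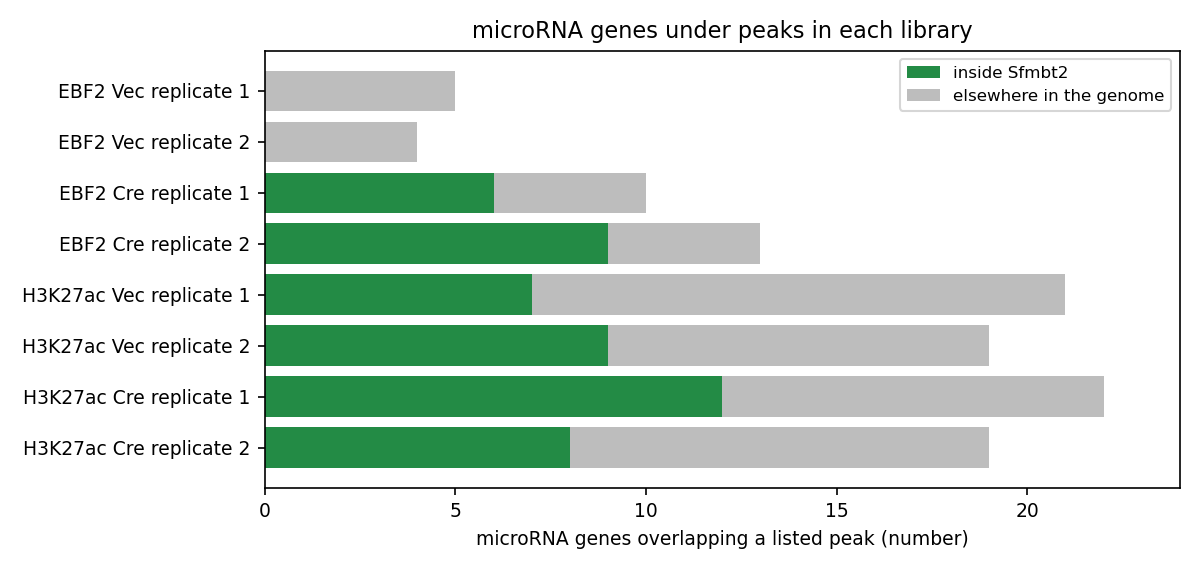
Number of annotated microRNA genes that overlap a listed peak in each library (rows), split into those inside Sfmbt2 (green) and those elsewhere (grey). The green part is 0 in both EBF2 Vec libraries and 6 to 12 in the other 6, and the grey part is 4 or 5 in the EBF2 libraries.

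The start sites of *Sfmbt2* were free of listed peaks. RefSeq promoters (GRCm38.p6, from 250 bases before to 50 after a start) place starts at 10370451 and 10372436, both on the plus strand and 1.99 kb apart. The nearest H3K27ac peak was 112 to 116 kb from them and the nearest EBF2 peak in Cre 114 to 120 kb. In Vec the nearest EBF2 peak was 11600 kb from both starts in replicate 1 and 44400 kb in replicate 2. Both promoters are shown because H3K27ac usually marks the promoter of an active gene and was not listed here. The H3K27ac lists had a peak in or within 50 kb of only 7.39% to 10.2% of all protein-coding genes. The lack of a listed peak therefore does not show that these promoters are inactive. Capitals would mark the core of the EBF motif, CCCNNGGG, which reads the same on both strands.
Sfmbt2 first start (chr2:10370201-10370500, plus strand): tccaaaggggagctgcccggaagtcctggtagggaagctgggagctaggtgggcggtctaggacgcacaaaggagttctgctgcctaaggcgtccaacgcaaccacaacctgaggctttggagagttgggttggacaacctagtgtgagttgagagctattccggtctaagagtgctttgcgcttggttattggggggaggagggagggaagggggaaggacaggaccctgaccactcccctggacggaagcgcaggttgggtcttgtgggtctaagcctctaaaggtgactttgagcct
Sfmbt2 second start (chr2:10372186-10372485, plus strand): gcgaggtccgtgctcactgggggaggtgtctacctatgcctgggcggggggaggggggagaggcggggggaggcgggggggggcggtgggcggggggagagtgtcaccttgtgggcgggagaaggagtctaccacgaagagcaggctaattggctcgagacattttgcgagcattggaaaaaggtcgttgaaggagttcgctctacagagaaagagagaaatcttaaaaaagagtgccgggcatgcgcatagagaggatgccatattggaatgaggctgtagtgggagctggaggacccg

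Neither sequence has this core, which 13.7% of the 32851 RefSeq promoters of the same length hold, and the absence says only that these letters are not in these windows. The G and C content was 57.7% at the first start and 60% at the second, with 9 and 16 CpG sites, against a median of 52.7% and 7 sites over all promoters. Of the neighbours, the long non-coding RNA *Gm13261* lies in the flank, 5.28 kb before the gene, and had no peak in any list. The nearest protein-coding genes are *Itih5*, 114 kb before, and *Prkcq*, 577 kb after, and neither had a peak in the gene in any list.

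Besides *Sfmbt2*, 5 protein-coding genes have at least 5 microRNA genes within their bounds: *Rtl1* with 15, *Nlrp12* and *Htr2c* with 7 each, and *Larp7* and *Clcn5* with 5 each. Their windows, drawn as for *Sfmbt2*, were empty in all 8 lists, which for 5 genes is near the share of 12.6% over all protein-coding genes in any list. Among 40 genes of Polycomb and MBT-domain proteins other than *Sfmbt2*, 3 had a peak within the same distance in at least 1 list. The share over all protein-coding genes was 12.6%. They were *Ezh2*, the methyltransferase of Polycomb repressive complex 2 (H3K27ac in Vec replicate 1 and Cre replicate 2), *Mbtd1*, another MBT-domain protein (H3K27ac in Vec replicate 1), and *Mga*, a subunit of a variant Polycomb complex (H3K27ac in Cre replicate 2). EBF2 peaks were at 0 of the 40 in any EBF2 list, *Yy1* and the paralogue *Sfmbt1* included. Of all genes, 5.09% to 6.75% had one in a given list, which for 40 genes is few, so nothing is read from the 0. In a list of 27 imprinted genes, most of them expressed from the paternal allele and *Sfmbt2* not counted, *Snrpn* alone had a peak. It was in EBF2 Cre replicate 2. Over all protein-coding genes the share was 12.6% in any list and 6.31% in EBF2 Cre replicate 2, so nothing is read from 1 of 27.

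The pattern of *Sfmbt2*, EBF2 in both Cre and neither Vec list together with H3K27ac in all 4, was found at 19 protein-coding genes, 0.0868% of all. In 5 of the 19, *Sfmbt2*, *Kif16b*, *Slc44a1*, *Tshr* and *Gm5936*, peaks lay in the gene itself in all 6 lists. In 5 the EBF2 peaks of Cre cells were at most 10 kb wide: *Sfmbt2* (7.43 kb), *Tshr*, the thyrotropin receptor gene (9.35 kb), and 3 neighbours on chromosome 8 that share a peak of 5.14 kb, *Defb33*, *Gm15056* and *Gm6040*. At the level of merged regions, 31 of 816 EBF2 regions had the *Sfmbt2* pattern of EBF2, with peaks from both Cre libraries and from no Vec library. The region of *Sfmbt2* was 7.7 kb wide, and 20 of these 31 were wider.

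A search was also made for genes with a like share of the gene and its flanks under peaks. The covered share of *Sfmbt2* was 0% in both EBF2 Vec libraries, 0.989% and 2.29% in Cre, 1.61% and 2.24% in H3K27ac Vec, and 3.09% and 2% in H3K27ac Cre. Over these 8 values, the smallest Euclidean distances were those of *Eif4g3* (2.67 percentage points), *Cntnap2* (2.72), *Smurf2* (2.73), *Brox* (2.82) and *Fam177b* (2.83), where a gene with no peak is at 5.23. *Eif4g3*, *Cntnap2* and *Smurf2* had EBF2 peaks in both Cre libraries, as *Sfmbt2* did, but also in Vec replicate 1, and *Cntnap2* in Vec replicate 2 as well. *Brox* and *Fam177b* had none in any EBF2 list. With the flanks left out, 0 of these 5 genes were among the nearest 5.

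Lists of peaks do not show whether *Cars2* was deleted, so the labels were not checked in this way. The lists held 533 to 724 EBF2 peaks and 646 to 902 H3K27ac peaks. Reads per library are not known from the lists, and the typical background coverage, which is solved from values at a summit, was 1.39 to 8.76 in EBF2 libraries. It is not given for H3K27ac, whose values are means over a peak. None of 12 defining genes of brown adipocytes, *Ucp1*, *Cidea* and *Pparg* among them, had a peak within 50 kb in any list. The share over all protein-coding genes was 12.6%, which is no yardstick for genes that define the labelled cell type. The paper reports EBF2 binding at *Ucp1* by Cut & Tag in these cells, reduced in Cre. The lists thus lack a site that the paper reports, and why was not tested. This limits every absent peak described here, those of EBF2 Vec at *Sfmbt2* included. The lists neither show nor deny the labelled cell type. None of 5 skeletal muscle, 4 endothelial and 4 immune markers had a peak in any list either. Of 6 mesenchymal markers, *Ly6a* had a peak in 6 lists.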

How the data were processed

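Each of the 8 libraries came as its own list of peaks. According to the submitters' processing notes, bcl2fastq 2.17, Trimmomatic 0.33, HISAT2 2.2.1, MACS2 2.2.7 and mm10 were used, and the control library, the treatment of duplicate and multiply placed reads and the threshold are not given in the sources used here. The authors deposited for each peak a score (10 times the −log10 q-value), a fold (ratio to the background of the caller), the −log10 p-value and −log10 q-value and, in the narrow EBF2 lists, the summit. The H3K27ac lists are broad, with means over the peak.

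Genes came from the RefSeq table of GRCm38.p6, the assembly of mm10. Peaks counted where they overlapped *Sfmbt2* or its 50 kb flanks by at least 1 bp, and microRNA genes where a peak touched them. Starts are given counting from 1. Background coverage b and peak coverage k were solved from the fold, (k + 1) / (b + 1), and the Poisson p-value, taking the solution with the higher b. The typical background is the 10th percentile over peaks with a −log10 p-value under 15. The functions were tested on simulated intervals and coverages.

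No group test was run: the gene, the gene lists and the marker lists were chosen with earlier results of these data known. The named genes are *Sfmbt2*, its neighbours, the microRNA genes under some lists, the 5 genes nearest to it in covered share, and list members with a peak. The rule for named genes had also asked for mature sequences of the cluster. The RefSeq sequence table matched 0 of its 72 genes, so none is printed, and the relatives elsewhere were added after the data were seen. Alternatives were a stricter score, windows of 0 and 10 kb, microRNA genes wholly inside a peak, merging of near peaks, either library in place of both, and leaving out each library. The work was done in Python 3.11.15 with matplotlib 3.10.9, scipy 1.17.1, pandas 2.3.3 and numpy 2.4.6.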

Additional observations from a re-analysis of the deposited data

How the results depend on the processing

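Of 95 alternative values, 10 moved by more than 1 SD (lengths) or 1.5 times (counts). The other 85 are no measure of stability: with 2 libraries the length in either one lies within 1 SD of their mean, and the alternatives tried cannot add a peak to the EBF2 Vec libraries. The EBF2 peaks of both Cre libraries passed the stricter score, which is the median over the EBF2 lists together. The peak of Cre replicate 1, with a score of 32, was under the median of 33 of its own list. With peaks below the median score left out (29 in the EBF2 and 27 in the H3K27ac lists), the H3K27ac peaks of Vec replicate 2 and Cre replicate 2 dropped out. H3K27ac then gave 0.5 peaks per library in Vec and in Cre, a covered length of 2.61 kb in Vec and 5.01 kb in Cre, 0 microRNA genes covered in both libraries of either cell type, and 0 regions held by both cell types. Leaving out 1 library gave 6 to 9 microRNA genes under EBF2 peaks in Cre against 4 in both, 7 to 9 under H3K27ac peaks in Vec against 5, and 8 to 12 in Cre against 8. Windows of 0 and 10 kb left the peaks as they were. When the gene alone was used to rank similar genes, 0 of the 5 named were kept. No paired analysis was possible because the labels do not tie libraries of the same replicate number to a shared culture or batch. No value at *Sfmbt2* was tested between groups.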
